A study of Mus musculus with 14 samples.

Results

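The proteasome is the large protease that degrades most ubiquitin-tagged proteins. Its 20S core is a barrel of alpha and beta rings in which Psmb5, Psmb6 and Psmb7 carry the active sites, and the 19S regulatory particle, made of the Psmc ATPases and the Psmd non-ATPase subunits, recognises, unfolds and feeds substrates into the barrel. In cells exposed to interferon, Psmb8, Psmb9 and Psmb10 take the places of Psmb5, Psmb6 and Psmb7 to form the immunoproteasome, and in skeletal muscle the proteasome is known for turning over myofibrillar proteins. Proteasome genes were taken as the protein-coding genes whose symbol begins with Psma to Psmg followed by a digit, which gave 50 of the 54532 genes counted. They were 7 alpha and 7 beta subunits of the constitutive core, 3 immunoproteasome subunits, 6 ATPases and 11 non-ATPase subunits of the 19S particle, 5 activators, 1 inhibitor, 7 assembly chaperones, the tissue-restricted Psma8 and Psmb11, and Psmc3ip, which fits the symbol pattern but encodes no subunit.

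The data were poly-T selected RNA-seq libraries of skeletal muscle, described in the methods as soleus and gastrocnemius, from male FVB/N mice. The 14 libraries fell into CT-CTD (3 libraries, control genotype on control diet), CT-WD (3, control genotype on western diet), OE-CTD (4, EC-Myc OE on control diet) and OE-WD (4, EC-Myc OE on western diet), with diets given for 20 weeks. EC-Myc OE mice carried a human MYC transgene under Tet-O control (Tet-O-Myc) together with Cdh5-tTA, which drives the activator from an endothelial promoter, and CT mice were littermates with Tet-O-Myc that lacked tTA. All animals had been kept on doxycycline until 4 to 6 weeks of age, when its withdrawal induced the transgene, and the transgene lies on the Y chromosome, so females could not be studied. The time on the diet is given here as in the labels and the study's methods, while the study's text on the muscle transcriptome gives a shorter one. The numbers of samples per diet also differ between the study's text and the labels, which were followed. The labels do not say which muscle each library came from. The labels number the replicates without naming animals, so p-values measure the spread between these samples, which may be technical. The sample descriptions of OE-CTD 1 to 3 share a number that OE-CTD 4 lacks, those of OE-WD 1 to 4 share another, and those of CT-CTD 1 and CT-WD 1 carry neighbouring numbers apart from the run of numbers of the other CT libraries. What these numbers mark is not stated, and if libraries of a group share an animal, litter or cage, the p-values given here, which count each library as a sample, are too small.

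CT-CTD libraries held 24101226 to 25054855 counts, CT-WD libraries 21833839 to 26518734, OE-CTD libraries 22083340 to 28519159 and OE-WD libraries 22033140 to 27698046. The tissue label fitted its markers. All 10 myofibre markers were tested, with Acta1 the most abundant at a mean of 42921 CPM (counts scaled to a common library total with TMM factors), and the fast myosin Myh4 averaged 48980 CPM. Of 11 lymphocyte markers only Ptprc passed the filter on low counts, at 1.45 CPM, and Cd3e stood at 0.0544 CPM. The counts are of mouse genes, and the human MYC transgene was not measured here. The samples are whole muscle, in which fewer cells of a type and less RNA per cell cannot be told apart.

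Some libraries stood apart before any comparison was made. OE-CTD 4 and OE-WD 4 had the lowest TMM factors (0.888 and 0.899, against 0.945 to 1.07 elsewhere) and the highest shares of mitochondrially encoded counts (14.9% and 14.5%, against 9.66% to 12.8%). Their summed level of the 8 fast fibre markers, of which Myh4 was the most abundant, was 138577 and 144278 CPM, against 100290 to 113405 in the other OE libraries and 110843 to 136533 in the CT libraries. Libraries also differed in how levels moved with gene length. Over 15458 genes, the correlation of a library's log2 deviation from the mean of all 14 with log2 gene length was 0.025, -0.11 and -0.11 in CT-WD 1 to 3 and 0.038, 0.094, 0.043 and 0.13 in OE-WD 1 to 4. On control diet it was -0.038, -0.032 and 0.0079 in CT-CTD 1 to 3 and -0.094, 0.018, 0.00024 and 0.073 in OE-CTD 1 to 4. Over the 31 constitutive subunits it was 0.32, -0.51 and -0.35 in CT-WD 1 to 3, 0.58, 0.30, 0.14 and 0.11 in OE-WD 1 to 4, -0.10, -0.092 and -0.013 in CT-CTD 1 to 3 and -0.40, -0.19, 0.019 and 0.21 in OE-CTD 1 to 4. Genes are not independent replicates and the libraries share their gene models, so these values describe the libraries and carry no p.

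The constitutive subunits were well expressed and varied little between libraries. The 31 constitutive 20S and 19S subunits had mean levels from 17.9 FPKM for Psma2 to 92.9 for Psmc5, a 5.17-fold range around a median of 39.1. The median over all 15458 genes tested was 2.39 FPKM. FPKM are fragments per kilobase of gene, scaled to the size of the library. Ranks and folds between genes in FPKM thus rest on the deposited gene lengths. For example, Psmb1 averaged 97.9 CPM over 4595 bases and Psmb5 43.3 CPM over 899 bases. Together the 31 subunits took between 0.284% and 0.36% of a library's counts. The median SD of a constitutive subunit over the 14 libraries was 0.12 on the log2 CPM scale, against 0.25 over all genes tested. Genes were not matched on level for this comparison, and most genes tested had lower levels than these subunits. The order of the 31 levels was much the same from library to library, with Spearman's rho across these genes of at least 0.965 for every pair of the 14 libraries, which share 1 set of gene lengths.

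In the alpha ring, which forms the gate of the barrel, Psma6 was the most abundant and Psma2 the least. Psma6 ran at 75.1, 78.1 and 86.6 FPKM in CT-CTD against 73.8, 84.8 and 87.7 in CT-WD, and 76.9, 76.9, 69.4 and 77.9 in OE-CTD against 67.9, 71.6, 65.5 and 74.9 in OE-WD, and Psma2 ran at 18.9, 18.7 and 19.7 FPKM in CT-CTD against 18.4, 19 and 18.7 in CT-WD, and 19.4, 18.4, 19.6 and 16 in OE-CTD against 17.5, 16.9, 16.4 and 13.8 in OE-WD. Psma6 exceeded Psma2 4.25-fold on average and in every library, although both subunits are present in equal copies in an assembled core. The count of Psma2 is uncertain because it shares 8943 bases of its strand with AW209491. Its place as the lowest constitutive subunit and the folds over it are therefore uncertain too. In the beta ring Psmb4, a structural subunit, was the highest at 62.7, 67.3 and 68 FPKM in CT-CTD, 64.8, 73.8 and 76.1 in CT-WD, 67.5, 58.8, 61 and 58.7 in OE-CTD against 60.1, 58.7, 58.6 and 51.8 in OE-WD. Psmb1 was the lowest of that ring, at 22.7, 23 and 25.2, 22.6, 26.7 and 28.9, 22.6, 21.6, 23.1 and 23.2 and 21.7, 22, 22.2 and 20.4 FPKM in the same order of groups. The beta ring had the narrowest range of the 4 constitutive classes, 2.72-fold.

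Among the 19S ATPases, which form the ring that unfolds substrates, Psmc5 ran at 94.6, 92.1 and 95 FPKM in CT-CTD against 87, 106 and 113 in CT-WD, and 88.5, 81.6, 86.9 and 104 in OE-CTD against 91, 83.6, 84.4 and 92.4 in OE-WD. Psmc2, the lowest ATPase, ran at 22, 21.5 and 25.2 FPKM in CT-CTD against 24.6, 25.4 and 26.1 in CT-WD, and 21.9, 21.4, 23 and 25.9 in OE-CTD against 22.6, 21.7, 21.9 and 23.1 in OE-WD. The gap between these ATPases was 3.99-fold in FPKM. In CPM Psmc2 averaged 107 and Psmc4 77.4, so the place of Psmc2 as the lowest rests on gene length. Among the non-ATPase subunits, the scaffold subunit Psmd2 led with 80.5, 82.2 and 88.8 FPKM in CT-CTD against 79.9, 83.8 and 86.7 in CT-WD, and 75, 69.8, 71.5 and 98.4 in OE-CTD against 80.1, 75.9, 76.9 and 93.1 in OE-WD, and OE-CTD 4 and OE-WD 4 were its highest libraries. The deubiquitinase Psmd14 was the lowest, at 19.4, 19.7 and 21.3 FPKM in CT-CTD against 19.2, 19.8 and 21.1 in CT-WD, and 19.6, 19.3, 19.8 and 20.3 in OE-CTD against 18, 19.1, 18.8 and 16.6 in OE-WD, and OE-WD 4 was its lowest library.

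The activators, which open the core without the 19S ATPases, had a median of 15.6 FPKM, against 39.1 for the constitutive subunits, and a median SD of 0.24 on the log2 CPM scale, against 0.12. These SDs were not matched on level either, and Psme2 and Psme2b averaged 9.28 and 5.75 CPM. The activators differed among themselves, and Psme3, at a mean of 23.1 FPKM, had an SD of 0.058, below that of each constitutive subunit. Psme4, the single-chain activator PA200, was the highest at 34.5, 42.7 and 42.3 FPKM in CT-CTD against 33.1, 35.9 and 32.9 in CT-WD, and 26.9, 25.7, 25.6 and 39.4 in OE-CTD against 29.8, 29.5, 30.3 and 36.4 in OE-WD. Psme2, which pairs with Psme1 in the interferon-inducible PA28 ring, was the lowest at 6.26, 5.32 and 3.84 FPKM in CT-CTD against 3.63, 5.86 and 6.69 in CT-WD, and 6.97, 5.69, 7.78 and 3.98 in OE-CTD against 7.11, 5.1, 5.67 and 6.61 in OE-WD. The inhibitor Psmf1 averaged 2.67 FPKM. The 7 assembly chaperones, which guide the building of the particle and leave it afterwards, spanned 18.9-fold. Psmg2 was their highest, at 19.2, 24.2 and 25.7 FPKM in CT-CTD against 18.9, 21.9 and 22.1 in CT-WD, and 21.7, 20.2, 18.5 and 19.1 in OE-CTD against 22.2, 18.6, 19.8 and 17.1 in OE-WD, and Psmg3 their lowest, at 1.02, 1.13 and 1.07 FPKM in CT-CTD against 1.51, 1.25 and 1.2 in CT-WD, and 1.18, 1.03, 0.976 and 0.92 in OE-CTD against 0.967, 0.9, 1.17 and 0.926 in OE-WD. Psma8 and Psmb11, which belong to the testis and thymus forms of the core, had at most 4 and 1 counts in any library and were the 2 members that the filter removed, which left 48 for testing.

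The level of the constitutive subunits in each library was summarised by a score. This score, the median over the 31 genes of its log2 CPM minus the mean of the 14 libraries, was -0.00075, -0.0063 and 0.10 in CT-CTD 1 to 3, -0.0090, 0.15 and 0.20 in CT-WD 1 to 3, 0.026, -0.086, -0.030 and -0.018 in OE-CTD 1 to 4 and -0.063, -0.078, -0.074 and -0.11 in OE-WD 1 to 4. CT-WD 2 and CT-WD 3 were the highest of all libraries, CT-WD 1 lay just below the lowest CT-CTD library, and the 4 OE-WD libraries lay below all 6 CT libraries. On a linear scale the summed CPM of the 31 genes was 3276, 3634 and 3759 in CT-WD and 3220, 3141, 3168 and 3162 in OE-WD, with no overlap between these groups, while CT-CTD (3306, 3362 and 3581) and OE-CTD (3324, 3086, 3191 and 3417) overlapped. The immunoproteasome subunits followed another order, with scores of 0.89 in CT-CTD 1 and 0.60 in OE-CTD 1 as the highest and -0.57 in CT-WD 2 as the lowest.

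**Figure D1:**
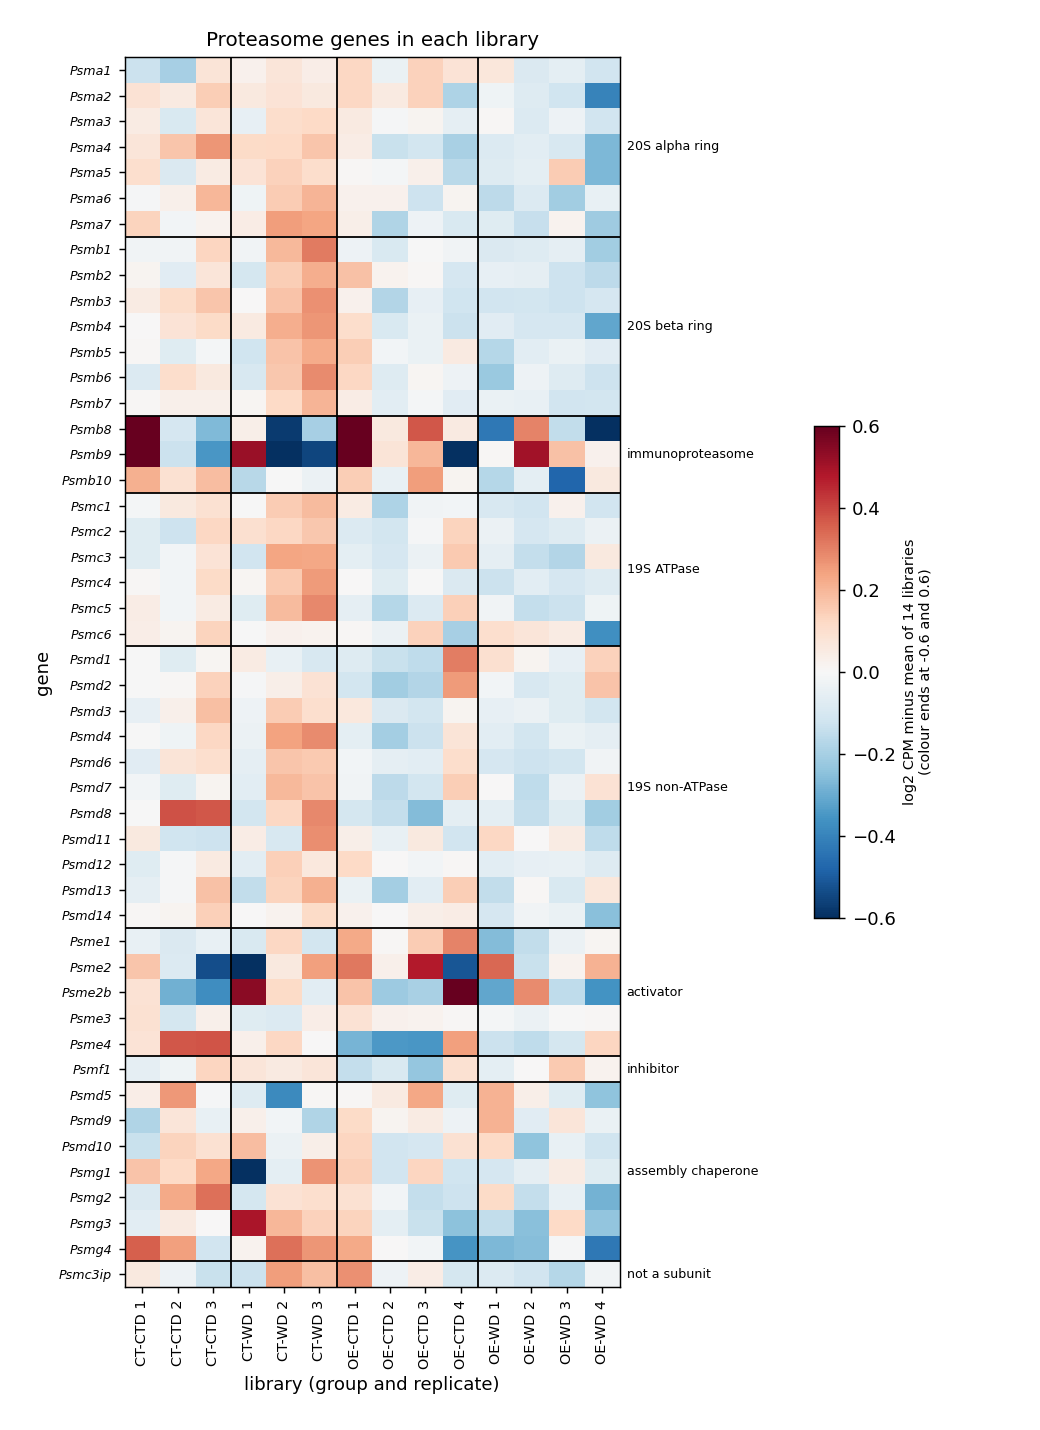
Log2 CPM of the 48 tested proteasome genes (rows, by role) in the 14 libraries (columns, by group), each as the difference from the gene's mean over the libraries, with red above and blue below the mean and colours ending at -0.6 and 0.6. Most constitutive subunits are red in CT-WD 2 and CT-WD 3 and pale blue in OE-WD, and the immunoproteasome rows vary more than the constitutive rows around them.

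The comparison of genotypes on western diet asked how muscle differed when mice with endothelial MYC were given that diet. OE-WD libraries had lower levels of most constitutive subunits than CT-WD libraries. Of 48 members tested, 20 had an unadjusted p under 0.05 with a lower level in OE-WD, when 8.42% of all genes tested did, and 0 had one with a higher level, when 8.44% of all genes did. No member passed an adjusted p of 0.05 in edgeR's quasi-likelihood test, which called 0.725% of all genes (112 genes), and DESeq2 called 6 members (Psma4, Psma7, Psmb1, Psmb3, Psmb4 and Psmc4), when it called 4.02% of all genes. Limma on FPKM called 0 members and 0.252% of all genes. At an unadjusted p under 0.05 each had 18 members lower, when 8.56% of all genes were lower in DESeq2 and 7.81% in limma. The differences were small, with a median log2 fold change of -0.19 over the 31 constitutive subunits, 30 of them below 0, against 0.0056 over all genes tested.

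The 20S core carried most of these genes. All 7 beta subunits and 4 of 7 alpha subunits had an unadjusted p under 0.05, with median log2 fold changes of -0.24 and -0.21. Psmb4 had the smallest p of all members: it stood at 117, 131 and 135 CPM in CT-WD and 108, 105, 105 and 90.9 CPM in OE-WD, and at 113, 119 and 122 in CT-CTD and 121, 106, 109 and 103 in OE-CTD (log2 fold change -0.32 ± 0.084 SE, unadjusted p = 0.0015, edgeR adjusted p = 0.083). Every OE-WD library was below every CT-WD library, with OE-WD 4 well below the other OE-WD libraries. Psma7, a subunit of the alpha ring, was at 94.1, 108 and 107 CPM in CT-WD, 86.7, 82.7, 92.6 and 78.5 in OE-WD, 100.1, 90.1 and 92.6 in CT-CTD and 93.2, 80.4, 89.2 and 85.5 in OE-CTD (log2 fold change -0.28 ± 0.083 SE, unadjusted p = 0.0041, edgeR adjusted p = 0.12). CT-WD 2 and 3 were its highest libraries, and CT-WD 1 exceeded the nearest OE-WD library, OE-WD 3, by little. The other core genes at an unadjusted p under 0.05 were Psmb1, Psmb2, Psmb3, Psmb5, Psmb6, Psmb7, Psma2, Psma4 and Psma6, with log2 fold changes from -0.18 (Psmb5) to -0.28 (Psmb1). Psmb5 had an unadjusted p under 0.05 in 3 of 15 alternatives, against 11 for Psmb6 and 12 for Psmb7.

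In the 19S particle the ATPases had a median log2 fold change of -0.20 and the non-ATPase subunits -0.13. An unadjusted p under 0.05 was found for 4 ATPases (Psmc1, Psmc2, Psmc4, Psmc5) and 3 non-ATPase subunits (Psmd4, Psmd6, Psmd8). The ATPase Psmc4 was at 77.8, 85.9 and 92.1 CPM in CT-WD, 70.5, 73.8, 71.8 and 73.2 in OE-WD, 77.6, 76.3 and 83.6 in CT-CTD and 77.3, 73.4, 77.1 and 72.7 in OE-CTD (log2 fold change -0.24 ± 0.072 SE, unadjusted p = 0.0048, edgeR adjusted p = 0.12). The 4 OE-WD libraries lay below all 6 CT libraries. The ubiquitin receptor Psmd4 was at 141, 171 and 177 CPM in CT-WD, 139, 134, 141 and 139.7 in OE-WD, 145, 142 and 158 in CT-CTD and 139, 126, 132 and 153 in OE-CTD (log2 fold change -0.24 ± 0.089 SE, unadjusted p = 0.018, edgeR adjusted p = 0.20). CT-WD 2 and 3 were well above the OE-WD libraries for Psmd4, and CT-WD 1 was level with the highest of them. Psmd1 was the constitutive subunit with a value above 0 (0.080 ± 0.10 SE).

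Outside the particle, the assembly chaperones Psmg3 and Psmg4 had an unadjusted p under 0.05 with lower levels in OE-WD. Psmg4 stood at 5.24, 6.52 and 6.22 CPM in CT-WD, 4.28, 4.31, 5.15 and 3.82 in OE-WD, 6.64, 6.15 and 4.77 in CT-CTD and 6.06, 5.18, 5.11 and 4.03 in OE-CTD (log2 fold change -0.45 ± 0.17 SE, unadjusted p = 0.018, edgeR adjusted p = 0.20). These are low counts, and OE-WD 3 lay just below CT-WD 1. Neither the 5 activators nor the inhibitor had an unadjusted p under 0.05, and the 3 immunoproteasome subunits had a median log2 fold change of 0.045. Libraries of the groups did not overlap, with OE-WD lower, for 15 of 48 members, when 5.54% of all genes tested had that pattern.

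The count of 20 depended on the libraries used. Without CT-WD 1 it was 25 of 48 (24 lower and 1 higher), when 12.2% of all genes were lower and 13.7% higher, and 10 members then had an edgeR adjusted p under 0.05, when 9.47% of all genes did. Without both CT libraries numbered 1, chosen after the data were seen, it was 25 (24 lower, beside 12.4% of all genes, and 1 higher, beside 14.4%), with 12 at an edgeR adjusted p under 0.05, when 10.7% of all genes were. Without CT-WD 2 it was 9, without CT-WD 3 it was 8 and without OE-WD 2 it was 13, all of them lower and each with 0 members past the adjusted threshold, when 6.13%, 4.46% and 6.54% of all genes were lower at an unadjusted p under 0.05. Without OE-WD 4 and OE-CTD 4, also chosen after the data were seen, 18 members were lower at an unadjusted p under 0.05, when 9.16% of all genes were. Scaling by library size alone gave 7, with a median over the constitutive subunits of -0.14 and over all genes of 0.047, no filter gave 13 and a fit to these groups alone 12, all of them lower, when 5.2%, 5.58% and 7.05% of all genes were lower in that order.

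Fold changes in this comparison varied with gene length. All genes tested were split by deposited length into 4 classes of near-equal size. In the shortest class (at most 2352 bases) the median log2 fold change was -0.11 and 13.8% of genes were lower at an unadjusted p under 0.05, and in the longest class (at least 6370 bases) these values were 0.057 and 5.23%. The constitutive subunits were mostly short, with 11 in the shortest class (median -0.22, 9 of them lower), 14 in the next (-0.19, 7 lower, against a median of -0.012 and 9.37% over all genes of that class), 4 in the third (-0.17, 2 lower, against 0.049 and 5.33%) and 2 in the longest (0.0027, 0 lower). In each class their median was below that of all genes of the class. The part of length in the result was not tested.

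Ribosomal protein, oxidative phosphorylation and proteasome partner genes gave values mostly in the same direction, and the Nfe2l1 list went both ways. At an unadjusted p under 0.05, 8.42% of all genes tested were lower and 8.44% higher. Of the 86 cytosolic ribosomal protein genes tested, 65 were lower at an unadjusted p under 0.05, with a median log2 fold change of -0.31, 6 of them with an edgeR adjusted p under 0.05. Of 91 nuclear oxidative phosphorylation genes, 38 were lower and 1 higher (median -0.20). Of 14 proteasome partners tested from 15 listed, 4 were lower, among them the maturation factor Pomp (-0.24 ± 0.080 SE, edgeR adjusted p = 0.15) and the deubiquitinase Uchl5 (-0.32 ± 0.095 SE, edgeR adjusted p = 0.11), and 0 were higher. In the list for Nfe2l1, the transcription factor that raises proteasome genes when the protease is inhibited, 1 of 11 was higher and 2 were lower, and Nfe2l1 itself stood at 0.099 ± 0.076 SE.

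Endothelial markers also differed between these groups. Of 10 endothelial markers 6 were higher in OE-WD at an unadjusted p under 0.05, with a median log2 fold change of 0.35, and Cdh5, whose promoter drives the tTA, passed the adjusted threshold (0.46 ± 0.091 SE, edgeR adjusted p = 0.032). Their summed CPM was 481, 419 and 426 in CT-WD and 510.1, 525, 535 and 520.2 in OE-WD, with Cdh5 the most abundant at a mean of 92.9 CPM and none of the 10 at 0. Of 7 slow fibre markers 2 were higher, while 5 of the 7 had values below 0 (median log2 fold change -0.024). Of 8 fast fibre and 10 myofibre markers 1 each was lower, and of 6 adipocyte markers 1 was higher. At the same threshold 8.44% of all genes tested were higher and 8.42% lower. Of the 9 macrophage markers tested 0 had an unadjusted p under 0.05 in edgeR. The summed adipocyte level was 144, 41.2 and 23.2 CPM in CT-WD and 58.8, 108, 76 and 75.2 in OE-WD, highest in CT-WD 1 within its group, with Cfd the most abundant and none of the 6 at 0. Their part in the lower proteasome levels was not tested.

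**Figure D2:**
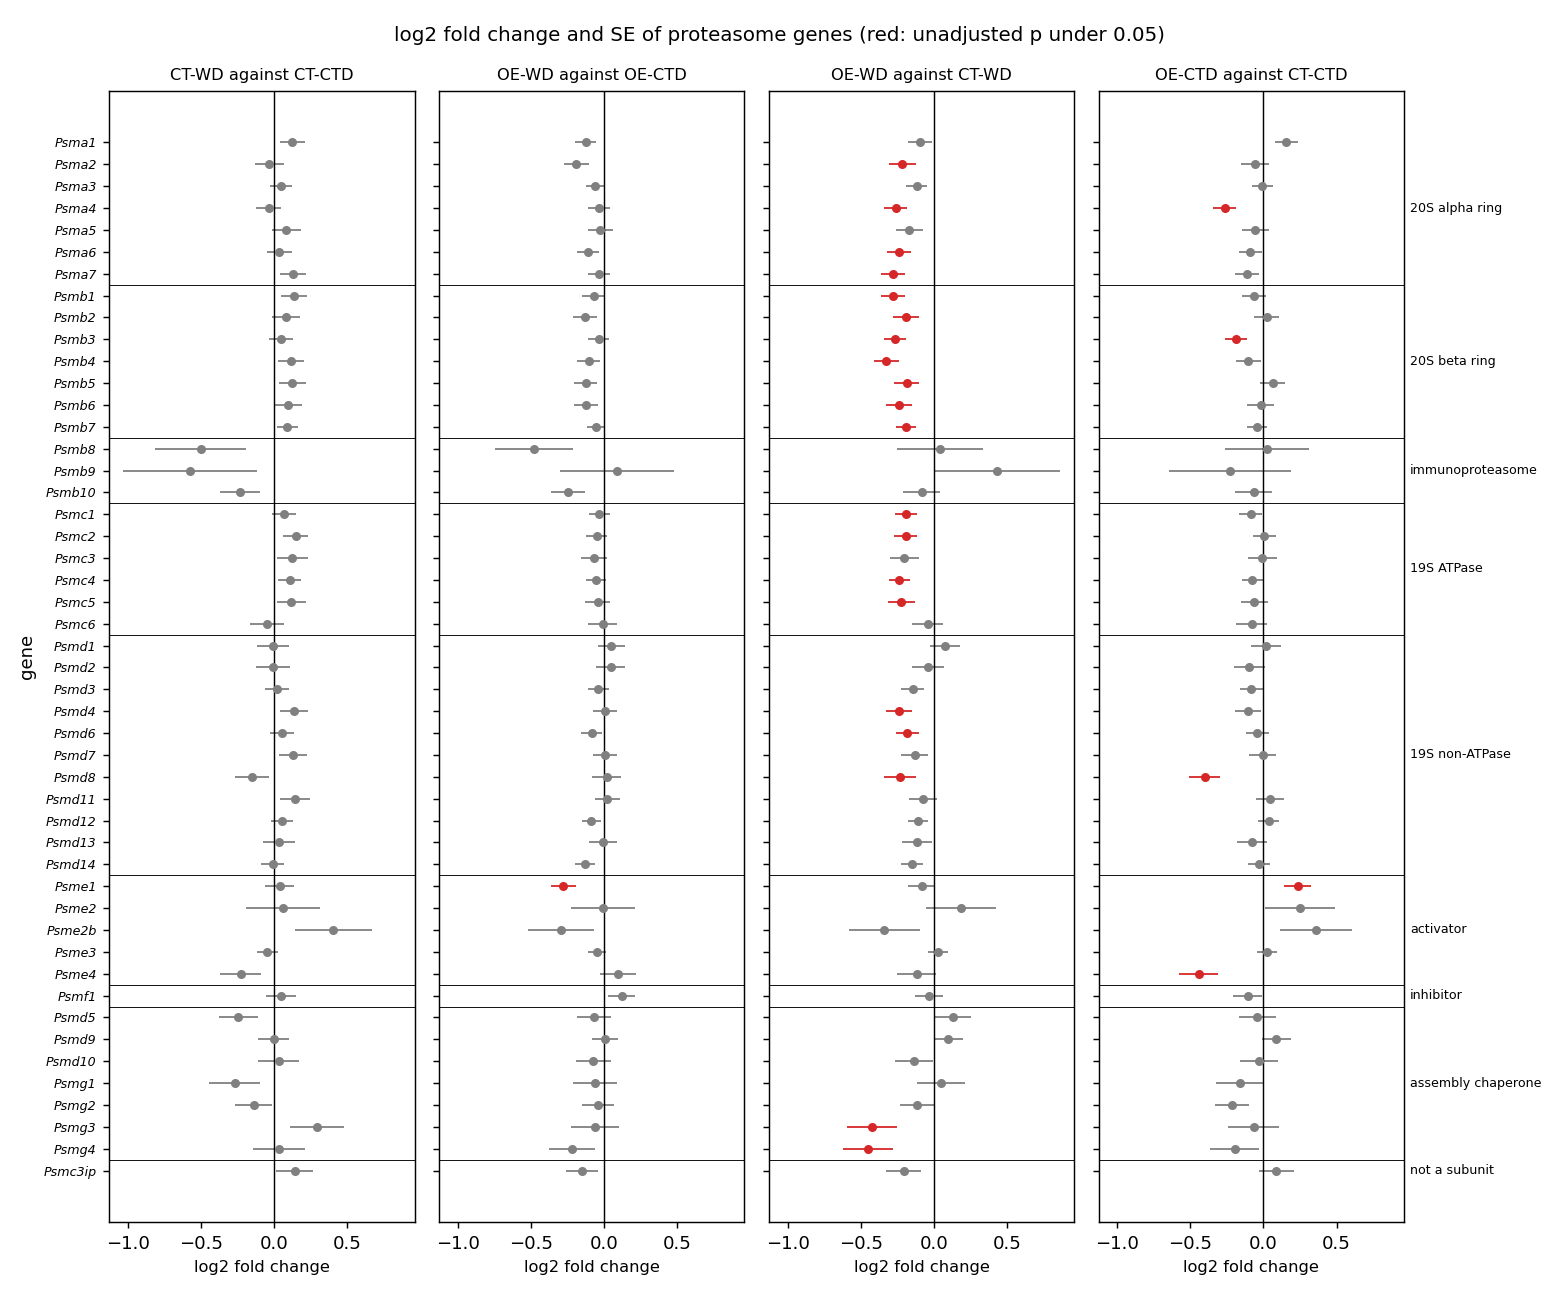
Log2 fold change (horizontal axis) with its standard error for each of the 48 tested proteasome genes (rows, by role) in the 4 comparisons of groups, with red points where the unadjusted edgeR p was under 0.05. In OE-WD against CT-WD 20 points are red, all of them below 0, while 5 are red in OE-CTD against CT-CTD, 1 within the OE genotype between diets and 0 within the CT genotype.

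On control diet few proteasome genes differed between the genotypes. Of 48 members, 4 were lower in OE-CTD at an unadjusted p under 0.05, when 6.7% of all genes tested were, and 1 was higher, when 9.22% were. No member passed the adjusted threshold in edgeR, which called 2.67% of all genes (413 genes), and DESeq2 called 3 members (Psma4, Psmd8 and Psme4), a share of 48 near the 5.49% of all genes that it called. Limma called 0 members and 1.69% of all genes. At an unadjusted p under 0.05 in either direction DESeq2 had 5 members and limma 6, when 16.2% and 15.4% of all genes passed. The median log2 fold change of the constitutive subunits was -0.058, and those of the ribosomal protein and oxidative phosphorylation genes were -0.091 and 0.090. As libraries were left out the median of the constitutive subunits ran from -0.081 to -0.017. That of the ribosomal protein genes was -0.059 without OE-CTD 2, and that of the oxidative phosphorylation genes was 0.042 without CT-CTD 1.

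Psmd8, a non-ATPase subunit of the 19S lid, was at 170.0, 222 and 221 CPM in CT-CTD and 158, 154, 142 and 164 in OE-CTD, and at 158, 186 and 208 in CT-WD and 164, 154, 162 and 147 in OE-WD (log2 fold change -0.40 ± 0.11 SE, unadjusted p = 0.0018, edgeR adjusted p = 0.060). CT-CTD 2 and 3 were far above CT-CTD 1, which still exceeded all 4 OE-CTD libraries. Without CT-CTD 1 the log2 fold change was -0.52 and Psmd8 passed the adjusted threshold, as it did without both CT libraries numbered 1 (-0.52). Psma4, of the alpha ring, was at 82.7, 88.3 and 94.7 CPM in CT-CTD and 81.3, 71.8, 72.9 and 68.9 in OE-CTD (log2 fold change -0.26 ± 0.079 SE, unadjusted p = 0.0045, edgeR adjusted p = 0.097), and was as low in OE-WD (74.4, 75.4, 73.6 and 65.2) while CT-WD held 85.4, 85.5 and 88.5. Psma4 was lower in both OE groups than in every CT library of the same diet. Psmb3, of the beta ring, was at 73.6, 76.7 and 79.7 CPM in CT-CTD, 72.4, 62.9, 68.6 and 65.3 in OE-CTD, 71.2, 80.0 and 86 in CT-WD and 65.6, 65.9, 65.2 and 66.3 in OE-WD (log2 fold change -0.19 ± 0.077 SE, unadjusted p = 0.027, edgeR adjusted p = 0.24 on control diet and -0.27 ± 0.077 SE, unadjusted p = 0.0034, edgeR adjusted p = 0.11 on western diet). On control diet the unadjusted p of Psmb3 was under 0.05 in 7 of 15 alternatives.

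Among the activators Psme4 had lower and Psme1 higher values in OE-CTD. Psme4 was at 266, 325 and 326 CPM in CT-CTD and 207, 198, 197 and 298 in OE-CTD, and at 257, 274 and 252 in CT-WD and 229, 226, 233 and 275 in OE-WD (log2 fold change -0.44 ± 0.13 SE, unadjusted p = 0.0045, edgeR adjusted p = 0.098 on control diet). OE-CTD 1, 2 and 3 lay close together, below all CT-CTD libraries, and OE-CTD 4 stood within the CT-CTD range. Without OE-CTD 4 the log2 fold change of Psme4 was -0.61, and it then passed the adjusted threshold, as it did with DESeq2, with no filter, with library size alone, with the replicate block (-0.60) and without both CT libraries numbered 1 (-0.53). Psme1, a PA28 subunit, was higher in OE-CTD, at 30.3, 29.5 and 30.3 CPM in CT-CTD and 36.7, 31.4, 34.8 and 38.5 in OE-CTD (log2 fold change 0.23 ± 0.093 SE, unadjusted p = 0.024, edgeR adjusted p = 0.23), with each OE-CTD library above each CT-CTD library. This unadjusted call was lost with the replicate block and without both OE libraries numbered 4. It was also lost without CT-CTD 1, CT-CTD 2, OE-CTD 1 or OE-CTD 4, each left out in turn. The count of Psme1 is uncertain because it shares 14 bases with Emc9 on the opposite strand.

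Markers of several cell types differed between these groups. Of 9 macrophage markers tested 7 were higher in OE-CTD at an unadjusted p under 0.05 (median log2 fold change 0.87), with summed levels of 87, 52.7 and 46.6 CPM in CT-CTD and 89.2, 108, 139 and 87.3 in OE-CTD, Lyz2 the most abundant and none of the 10 listed at 0. Of 10 endothelial markers 5 were higher (median 0.30; summed CPM 394, 394 and 410.4 in CT-CTD and 504, 508, 482 and 448 in OE-CTD), and of 7 slow fibre markers 3 were higher (summed CPM 4877, 3999 and 5476 in CT-CTD and 5752, 5608, 5401 and 6467 in OE-CTD, Atp2a2 the most abundant). The part of these cells in the values of Psme1 and the other members was not tested. Of the Nfe2l1 list 2 genes were higher and 1 lower, and the small Maf gene Mafk passed the adjusted threshold (0.66 ± 0.16 SE, edgeR adjusted p = 0.043). Of the proteasome partners 1, Akirin2, was higher (0.22 ± 0.092 SE, edgeR adjusted p = 0.24) and 0 were lower.

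The western diet in CT mice gave no proteasome gene at an unadjusted p under 0.05 in either direction, when 4.19% of all genes tested were higher and 3.09% lower. At an adjusted p of 0.05 edgeR (0% of all genes), DESeq2 (0.268%) and limma (0%) each called 0 members. At an unadjusted p under 0.05 DESeq2 had 0 members and limma 1, which was higher, when 3.58% of all genes were. The constitutive subunits had a median log2 fold change of 0.083 with 24 of 31 above 0. The CT-WD libraries differed among themselves. Without CT-WD 1, which had the lowest score of the group, 7 members passed an unadjusted p of 0.05, of which 6 were higher, when 6.05% of all genes were, and 1 lower, when 6.04% were, and the median of the constitutive subunits was 0.13. Without CT-CTD 3 there were 3 such members (2 higher and 1 lower), when 3.25% of all genes were higher and 2.68% lower. Without CT-WD 3 there were 2 and without CT-CTD 1 there was 1, all lower, when 2.24% and 3.94% of all genes were. Without both CT libraries numbered 1 there were 2, both higher, when 5.33% of all genes were.

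Some genes that act around the proteasome had an unadjusted p under 0.05 in this comparison. In the Nfe2l1 list 5 of 11 were higher and 0 lower (median log2 fold change 0.22), namely the small Maf genes Maff (1.53 ± 0.40 SE, edgeR adjusted p = 0.43), Mafk (0.71 ± 0.17 SE, edgeR adjusted p = 0.39) and Mafg (0.22 ± 0.086 SE, edgeR adjusted p = 0.60), the related factor Nfe2l2 (0.53 ± 0.22 SE, edgeR adjusted p = 0.62) and the repressor Bach1 (0.31 ± 0.13 SE, edgeR adjusted p = 0.62). None of them passed the adjusted threshold. Maff stood at 7.75, 4.35 and 7.11 CPM in CT-CTD and 9.22, 11.6 and 34.8 in CT-WD, and Nfe2l2 at 36.4, 46.9 and 39.6 CPM in CT-CTD and 38.5, 53.8 and 85.8 in CT-WD. CT-WD 3 was the highest CT library for all 5 of these genes. Without it the log2 fold changes were 0.70 for Maff and 0.17 for Nfe2l2, and 2 genes of the list (Maff and Mafk) had an unadjusted p under 0.05. The number was also 2 without CT-CTD 3, and it was 3 without CT-CTD 2, 4 without CT-CTD 1, 5 without CT-WD 2 and 6 without CT-WD 1. Of the 14 proteasome partners 0 passed an unadjusted p of 0.05. The ribosomal protein genes had 4 of 86 higher and 1 lower (median 0.10), and the oxidative phosphorylation genes 1 of 91 higher (median 0.12). Of the macrophage markers 2 of 9 were higher, of the endothelial markers 2 were higher and 1 lower, and of the myofibre, slow fibre, fast fibre and adipocyte markers 0 passed. All 6 adipocyte markers nonetheless had values below 0 (median log2 fold change -0.98), and all 9 macrophage markers values above 0 (median 0.56). The summed adipocyte level was 183, 86.7 and 45.8 CPM in CT-CTD and 144, 41.2 and 23.2 in CT-WD. The part of these cells in the proteasome values was not tested.

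In EC-Myc OE mice the western diet gave 1 member lower at an unadjusted p under 0.05, when 2.27% of all genes tested were lower, and 0 higher, when 1.93% were. No member passed an adjusted p of 0.05 in edgeR, which called 0.00647% of all genes (1 gene), in DESeq2 (0.00647%) or in limma (0.00647%). At an unadjusted p under 0.05 DESeq2 had 1 member and limma 3, all lower, when 2.23% and 2.44% of all genes were. The member in edgeR was Psme1, at 36.7, 31.4, 34.8 and 38.5 CPM in OE-CTD against 26.1, 28.3, 30.6 and 31.6 in OE-WD (log2 fold change -0.28 ± 0.086 SE, unadjusted p = 0.0055). OE-CTD 2 lay within the OE-WD range, so the groups overlapped, and CT-WD held 29.4, 34.2 and 29 CPM. All 14 core subunits had values below 0, with a median of -0.088, and the 17 subunits of the 19S particle had a median of -0.032, none of them at an unadjusted p under 0.05. The core median was -0.047 without OE-WD 4. The 19S median was -0.0060 without OE-CTD 1 and -0.0064 without OE-CTD 4. Its sign turned without both OE libraries numbered 4 (0.0078), an alternative chosen after the data were seen. Of the oxidative phosphorylation genes 27 of 91 were lower (median -0.17) and of the ribosomal protein genes 9 of 86 (-0.13). Of the Nfe2l1 list 2 genes were higher and of the proteasome partners 1 was lower. Without OE-CTD 4 the count of members was 5 (3 lower and 2 higher), when 2.99% of all genes were lower and 3.43% higher. Without OE-WD 2 it was 3, all lower, when 1.89% of all genes were. Without OE-CTD 2, OE-WD 1 or OE-WD 4 it was 2, all lower, when 1.73%, 1.89% and 2.29% of all genes were.

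Whether the response to diet differed between genotypes was tested with the interaction, in which 2 members were lower at an unadjusted p under 0.05, when 3.34% of all genes tested were, and 0 were higher, when 2.57% were. No gene and no member passed the adjusted threshold in edgeR (0% of all genes), and DESeq2 (0.074%) and limma (0%) called 0 members. At an unadjusted p under 0.05 each had 2 members lower, when 3.45% and 3% of all genes were. In edgeR the members were Psme1 (log2 difference -0.31 ± 0.13 SE, unadjusted p = 0.030) and the alpha subunit Psma1 (-0.25 ± 0.11 SE, unadjusted p = 0.045). The unadjusted p was under 0.05 in 14 of 21 alternatives for Psme1 and in 6 for Psma1. Psma1 was at 61.6, 58.7 and 71 CPM in CT-CTD against 68.5, 70.8 and 69.2 in CT-WD, and 73.3, 65.5, 74.2 and 71.4 in OE-CTD against 70.7, 63.4, 64.6 and 62.2 in OE-WD, with the groups overlapping. The median over the constitutive subunits was -0.14, when 22 of 86 ribosomal protein genes were lower at an unadjusted p under 0.05 (median -0.23) and 38 of 91 oxidative phosphorylation genes (median -0.29), with 0 higher in both. Without CT-WD 1 the count of members at an unadjusted p under 0.05 was 10 (9 lower and 1 higher), when 5.56% of all genes were lower and 5.16% higher. Without both CT libraries numbered 1 it was 7, all lower, when 5.07% of all genes were. Over the other libraries left out in turn it ran from 0 to 3, when 4.54% to 7.91% of all genes passed in either direction. The comparisons on each diet and within each genotype share libraries, and a threshold passed on western diet and not on control diet is not shown to differ between diets by these tests.

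The immunoproteasome subunits were scarce beside the catalytic subunits that they replace. Psmb5, with chymotrypsin-like activity, ran at 52.4, 50.2 and 51.8 FPKM in CT-CTD against 47.7, 59.4 and 61.6 in CT-WD, and 57.9, 51.5, 50.8 and 55.4 in OE-CTD against 46.5, 50.2, 50.9 and 50.9 in OE-WD, and its counterpart Psmb8 at 2.7, 1.36 and 1.2 FPKM in CT-CTD against 1.47, 0.969 and 1.27 in CT-WD, and 2.22, 1.51, 1.88 and 1.53 in OE-CTD against 1.07, 1.79, 1.3 and 0.963 in OE-WD. In percent, Psmb8 stood at 3.39% ± 1.54 (SD, n = 3) of the Psmb5 level in CT-CTD, 2.26% ± 0.745 (n = 3) in CT-WD, 3.31% ± 0.545 (n = 4) in OE-CTD and 2.58% ± 0.716 (n = 4) in OE-WD. CT-CTD 1 was the highest library and the groups overlapped. The size of this share rests on the deposited gene lengths, 2736 bases for Psmb8 and 899 for Psmb5. In CPM the means over all libraries were 3.80 and 43.3. The lengths are the same in every library, so differences between groups do not depend on them. Psmb6, with caspase-like activity, ran at 55.1, 63.7 and 60.8 FPKM in CT-CTD against 54.3, 66.1 and 71.8 in CT-WD, and 63.7, 55.4, 58.9 and 58.5 in OE-CTD against 50.2, 57.5, 55.5 and 54.8 in OE-WD, and Psmb9 at 1.41, 0.616 and 0.519 FPKM in CT-CTD against 0.961, 0.261 and 0.453 in CT-WD, and 1.03, 0.705, 0.772 and 0.372 in OE-CTD against 0.672, 0.963, 0.76 and 0.696 in OE-WD. The Psmb9 counts ranged from 18 in CT-WD 2 to 120 in CT-CTD 1, and the spread within each CT group was wider than the differences between group means. Same-numbered CT libraries correlated, a pairing read from the data, since the labels do not say what a number marks. Psmb9 was lower in CT-WD in each such pair. Its values there were 4.75 against 3.25, 2.05 against 0.87 and 1.75 against 1.51 CPM, with CT-CTD first.

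Psmb7, with trypsin-like activity, ran at 41, 42.2 and 41.7 FPKM in CT-CTD against 41, 44.9 and 47.4 in CT-WD, and 42.1, 39, 40.6 and 39.8 in OE-CTD against 39.9, 39.8, 37.8 and 38.7 in OE-WD. Psmb10 was the most abundant immunoproteasome subunit, at 7.73, 7.18 and 7.57 FPKM in CT-CTD against 5.89, 6.72 and 6.55 in CT-WD, and 7.38, 6.45, 7.94 and 6.88 in OE-CTD against 5.92, 6.43, 4.78 and 7.1 in OE-WD, which was 18% ± 0.939 (SD, n = 3) of Psmb7 in CT-CTD, 14.4% ± 0.585 (n = 3) in CT-WD, 17.7% ± 1.3 (n = 4) in OE-CTD and 15.5% ± 2.38 (n = 4) in OE-WD. The size of this share rests on gene length as well, 1705 bases for Psmb10 and 3421 for Psmb7, with mean CPM of 10.5 and 129. The 3 CT-WD libraries lay below the 3 CT-CTD libraries. On the log2 scale this ratio differed by -0.32 between CT-WD and CT-CTD (2-sided exact permutation test, p = 0.1, the smallest that 3 against 3 libraries can give). In each same-numbered pair of CT libraries, the ratios of Psmb8 to Psmb5, Psmb9 to Psmb6 and Psmb10 to Psmb7 were lower in CT-WD. The permutation test did not use this pairing, which was read from the data.

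The exact permutation test of these ratios was run 12 times (3 ratios in 4 comparisons), and groups of 3 and 4 or of 4 and 4 allow it an unadjusted p of 0.0286 at the lowest. A ratio that differed alone could then reach an adjusted p of 0.343 at the lowest, so the adjusted test could not pass a single ratio. The unadjusted p-values ran from 0.1 to 0.914. In edgeR the log2 fold changes in CT-WD against CT-CTD were -0.50 ± 0.31 SE for Psmb8, -0.58 ± 0.46 SE for Psmb9 and -0.23 ± 0.13 SE for Psmb10, with unadjusted p-values of 0.13, 0.23 and 0.10. Single libraries moved these values. Without CT-CTD 1 they were -0.051 for Psmb8 and -0.0012 for Psmb9, without CT-CTD 3 the value of Psmb8 was -0.71 (unadjusted p = 0.043), and that of Psmb9 was -1.25 without CT-WD 1 (unadjusted p = 0.019) and -0.25 without CT-WD 2. In OE-WD against CT-WD the log2 fold changes were 0.045 ± 0.29 SE, 0.44 ± 0.43 SE and -0.080 ± 0.13 SE in the same order, while those of Psmb5, Psmb6 and Psmb7 were -0.18 ± 0.086 SE, -0.24 ± 0.092 SE and -0.19 ± 0.068 SE. The value of Psmb9 was 0.11 without CT-WD 2 and 1.11 without CT-WD 1 (unadjusted p = 0.028). Without both CT libraries numbered 1, an alternative chosen after the data were seen, it was 1.11 (unadjusted p = 0.0098), and in none of these did it pass the adjusted threshold. In OE-WD against OE-CTD the immunoproteasome subunits had log2 fold changes of -0.48 ± 0.27 SE for Psmb8, 0.089 ± 0.39 SE for Psmb9 and -0.25 ± 0.12 SE for Psmb10, with unadjusted p-values of 0.092, 0.82 and 0.051. In that comparison the unadjusted p was under 0.05 in 6 of 15 alternatives for Psmb10 and 3 for Psmb8, and in CT-WD against CT-CTD in 1 of 13 for Psmb8, 1 for Psmb9 and 0 for Psmb10.

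**Figure D3:**
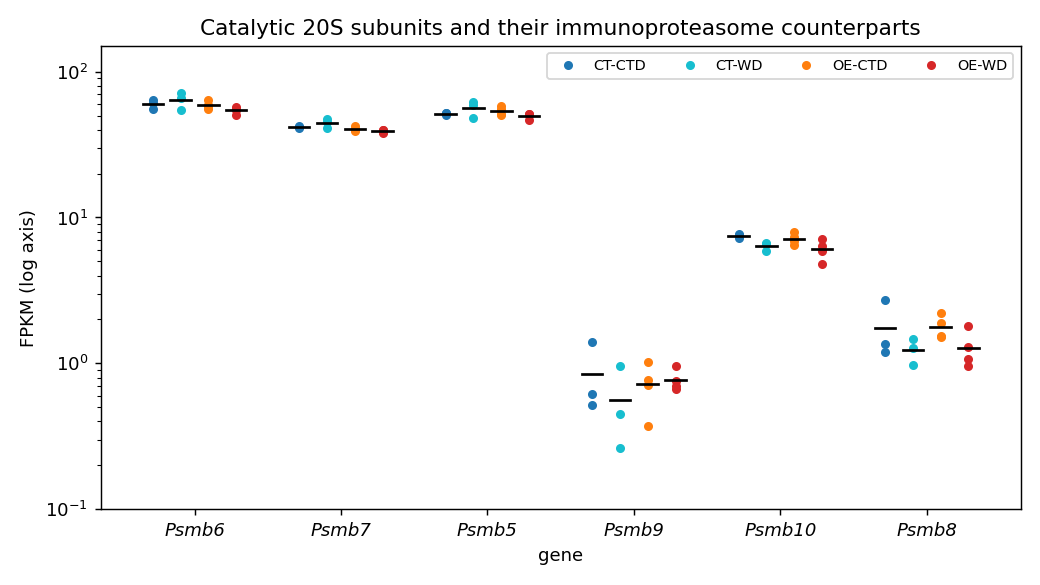
FPKM (vertical log axis) of the catalytic subunits Psmb6, Psmb7 and Psmb5 and of the immunoproteasome subunits Psmb9, Psmb10 and Psmb8 in each library (points, coloured by group) with group means (black bars). The catalytic subunits lie between 37.8 and 71.8 FPKM and the immunoproteasome subunits between 0.261 and 7.94. The groups overlap for Psmb8 and Psmb9, and the CT-WD points of Psmb10 lie below those of CT-CTD.

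Of the genes of class I antigen presentation and interferon, 0 of 20 tested had an unadjusted p under 0.05 in edgeR in each of the 4 comparisons of groups. The median log2 deviation of this list in a library was 0.38, -0.11 and -0.14 in CT-CTD, 0.19, -0.21 and -0.22 in CT-WD, 0.36, -0.078, 0.16 and -0.50 in OE-CTD against -0.099, 0.25, 0.18 and -0.22 in OE-WD. CT-CTD 1 and OE-CTD 1, the highest libraries for Psmb8 and Psmb9, were also the highest for this list, and OE-CTD 4 was the lowest. Tap1, the peptide transporter gene beside Psmb9, averaged 4.09 CPM and Psmb9 2.44. The lymphocyte markers Cd3e and Cd8a were near 0 in these libraries.

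The members lay on 16 chromosomes of mm10, with 10 on chromosome 11 and 6 each on chromosomes 2 and 14. Psmb8 (chr17:34197721-34201454) and Psmb9 (chr17:34181988-34187764) were neighbours in the major histocompatibility region, and Psme1 (chr14:55578123-55581529) and Psme2 (chr14:55587441-55591113) lay close together. Psmb4 is at chr3:94884093-94886961, Psmd8 at chr7:29174188-29180701 and Psme4 at chr11:30771726-30880361. Some counts are uncertain because the strand setting of the counting is not given in the sources used here. Psmb9 overlaps Tap1 on the opposite strand (4.14 CPM without TMM scaling), Psme1 overlaps Emc9 (19.2 CPM), and Psmc3, Psmb7, Psmd13 and Psma3 overlap Slc39a13 (28), Nek6 (20.7), Sirt3 (18) and 3110056K07Rik (2.34), so reads from the shared bases cannot be told apart. Psma2 shares its strand with AW209491 (12.2), and Psme2 and its near-identical copy Psme2b may share reads.

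The start regions of the subunits were searched for short motifs because most constitutive subunits had lower values in OE-WD and because Nfe2l1 and MYC bind known motifs. RefSeq promoter sequences (250 bases before to 50 after the gene start, GRCm38.p6) matched 42 of the 50 members with 45 entries. The core of the antioxidant response element, TGACNNNGC on either strand, which factors of the Nfe2l family bind with small Maf partners, was in 6 of 45 entries and in 12.4% of all 32851 promoters. The CCAAT box, CCAAT on either strand, was in 15 of 45 and 37.4% of all, and the E-box CACGTG, a palindrome that MYC binds with Max, in 4 of 45 (Psma4, Psmb10, Psmd9 and Psme3) and 7.15% of all. The member shares of 13.3%, 33.3% and 8.89% were near those of all promoters. In the members no match of one motif overlapped a match of another. A match is a stretch of letters and not a measured binding site.

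The stretches around the antioxidant response element match are shown for the 4 constitutive subunits that hold one, on the strand of each gene and with the match in capitals. They lie at chr14:54618018-54618058 (minus strand, match beginning 47 bases before the gene start), chr11:70525332-70525356 (plus strand, 9 bases before), chr14:45329581-45329621 (plus strand, 227 bases before, match on the opposite strand) and chr11:107479278-107479305 (plus strand, 247 bases before, match on the opposite strand), all in GRCm38.p6 and upstream of the RefSeq start. In the deposited counts Psmb5 reaches to 54618022, so the last bases of its stretch lie inside the gene as counted.
Psmb5: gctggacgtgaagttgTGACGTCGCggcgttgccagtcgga
Psmb6: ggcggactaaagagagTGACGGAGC
Psmc6: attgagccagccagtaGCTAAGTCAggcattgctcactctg
Psmd12: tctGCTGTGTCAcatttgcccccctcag
In OE-WD against CT-WD these genes had log2 fold changes of -0.18 ± 0.086 SE, -0.24 ± 0.092 SE, -0.040 ± 0.11 SE and -0.11 ± 0.070 SE. Of the constitutive subunits with a promoter entry, 1 of 25 holds the E-box. It is the core gene Psma4, in which it lies at chr9:54950703-54950740 (plus strand, match beginning 140 bases before the start).
Psma4: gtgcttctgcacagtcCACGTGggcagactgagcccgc
Psma4 had log2 fold changes of -0.26 ± 0.079 SE on western diet and -0.26 ± 0.079 SE on control diet. The values of the other members with an E-box were, in the same order, 0.099 ± 0.099 SE and 0.087 ± 0.099 SE for the assembly chaperone Psmd9, 0.028 ± 0.068 SE and 0.026 ± 0.068 SE for the activator Psme3, and -0.080 ± 0.13 SE and -0.068 ± 0.13 SE for Psmb10.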

How the data were processed

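Whole-muscle mRNA libraries were compared between the 4 groups. Counts per gene were deposited by the authors, who, per the submitters' processing notes, used HISAT2 2.0.5, featureCounts 1.5.0-p3 and mm10, and the authors also deposited FPKM per gene. The strand setting and the annotation release are not given in the sources used here. Genes were filtered with filterByExpr (smallest group of 3), which kept 15458 of 54532 genes and removed 0.069% of the counts in the library that lost most. Counts were tested with edgeR 4.0.16 (R 4.3.3), using TMM factors, a 4-group model of all 14 libraries and the quasi-likelihood test with Benjamini-Hochberg adjustment over all genes tested, with 10 residual degrees of freedom and a common coefficient of variation of 17%. The code was tested on simulated data. CPM used TMM-scaled totals, log2 CPM a prior count of 2, and ratios of FPKM were compared with an exact permutation test over libraries. DESeq2 1.42.0, limma 3.58.1 on log2(FPKM + 1), no filter, library size alone, the replicate block, fits to the groups compared alone and leaving out each library in turn were alternatives, and leaving out both OE libraries numbered 4 or both CT libraries numbered 1 was added after the data were seen.

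Genes given with values in every library were the 3 catalytic and 3 immunoproteasome subunits, the member with the smallest unadjusted p under 0.05 in each role and comparison, and the highest and lowest in mean FPKM of each role with several tested members. Others named were chosen after their values were seen. The members and the gene lists were chosen with earlier results of these data known. Libraries of a group differed beyond counting noise (chi-square per degree of freedom 7.76 to 50.3), and each was counted as a sample, although this does not show separate animals. OE-CTD 1 to 3, which share a number in their descriptions, differed by 7.76 to 10.5 from each other and by 36.3 to 42.4 from OE-CTD 4, and OE-WD 1 to 3 by 8.46 to 15.1 from each other and by 38.4 to 42.4 from OE-WD 4, when all 4 OE-WD libraries share a number. Replicate numbers are shared between groups. Same-numbered CT-WD and CT-CTD libraries correlated in their deviations from the group means (0.38, 0.12 and 0.20), a pairing read from the data, since the labels do not say what a number marks. The descriptions of CT-CTD 1 and CT-WD 1 carry neighbouring numbers, and those of the other CT libraries a run of numbers apart from them. The block left the counts of members in that comparison at 0.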

Additional observations from a re-analysis of the deposited data

Results flagged for a closer look

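Among the 62 sets of 4 OE libraries examined (31 quantities in 2 groups), 4 held a library far from the others. Chance alone marks about 5% of such sets, so the number found was near the chance share. Psme4 stood at 298 CPM in OE-CTD 4, when the other OE-CTD libraries lay between 197 and 207, and at 275 CPM in OE-WD 4, when the other OE-WD libraries lay between 226 and 233. Psmb4 was low in OE-WD 4, at 90.9 CPM against 105 to 108 in its group. Psma6 was low in OE-CTD 3, at 78.8 CPM against 86.6 to 87.3. OE-CTD 4 and OE-WD 4 are the libraries with the lowest TMM factors and the highest mitochondrial shares, and the part of these in the Psme4 and Psmb4 values was not tested.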

How the results depend on the processing

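The median log2 fold change of the constitutive subunits kept its sign under all alternatives, from -0.25 to -0.14 in OE-WD against CT-WD and from 0.032 to 0.13 in CT-WD against CT-CTD as libraries were left out. Counts of members moved more, and the cause was not tested. Each count of members is followed by the share of all genes that passed in either direction. Those at an adjusted p under 0.05 were 6 (4.02%) in OE-WD against CT-WD and 3 (5.49%) in OE-CTD against CT-CTD with DESeq2, and in the latter 2 (2.72%) with no filter, 1 (1.38%) with library size alone, 1 (1.2%) with the replicate block and 1 (3.61%) without both OE libraries numbered 4 (chosen after seeing the data). Without both CT libraries numbered 1 (chosen likewise) they were 12 (10.7%) in OE-WD against CT-WD and 2 (4.88%) in OE-CTD against CT-CTD, and those at an unadjusted p under 0.05 were 2 (10.5%) in CT-WD against CT-CTD and 7 (9.62%) in the interaction, and signs turned for Psmb9 in OE-CTD against CT-CTD (0.36) and Psmb8 in the interaction (-0.28). Under the other alternatives, those at an unadjusted p under 0.05 were, in OE-WD against CT-WD, 13 (11.3%) with no filter, 7 (13.7%) with library size alone, 14 (14%) with the replicate block and 12 (13.9%) with the groups compared alone, all lower, in OE-WD against OE-CTD 2 (3.99%) with no filter, 3 (4.51%) with limma, 2 (4.91%) with the replicate block, 2 (5.88%) with the groups alone and 4 (4.53%) without both OE libraries numbered 4, in CT-WD against CT-CTD 1 (6.05%) with library size alone and 1 (6.86%) with limma, and in the interaction 1 (5.05%) with library size alone and 6 (10.8%) with the replicate block. As each library was left out they ran from 0 to 7 (5.02% to 12.1%) in CT-WD against CT-CTD, 1 to 5 (3.11% to 6.42%) in OE-WD against OE-CTD, 8 to 25 (10.03% to 26%) in OE-WD against CT-WD, 3 to 5 (11.6% to 17.9%) in OE-CTD against CT-CTD and 0 to 10 (4.54% to 10.7%) in the interaction, and at an adjusted p from 0 to 10 (0.026% to 9.47%) in OE-WD against CT-WD and 0 to 1 (0.485% to 2.78%) in OE-CTD against CT-CTD. Signs turned for Psmb10 in the interaction with library size alone (0.019), Psmb8 in the interaction with limma (-0.027) and the replicate block (-0.037), Psmb9 in OE-CTD against CT-CTD with the block (0.086) and Psmb9 in OE-WD against OE-CTD without both OE libraries numbered 4 (-0.063). Signs also turned as libraries were left out, with ranges of -0.078 to 0.022 (Psmb6), -0.19 to 0.48 (Psmb8) and -0.49 to 0.35 (Psmb9) in OE-CTD against CT-CTD, -0.17 to 0.20 (Psmb8) and -0.16 to 0.012 (Psmb10) in OE-WD against CT-WD, -0.12 to 0.31 (Psmb9) in OE-WD against OE-CTD, and -0.44 to 0.23 (Psmb8) and -0.089 to 0.081 (Psmb10) in the interaction. The log2 ratios turned likewise, from -0.19 to 0.39 (Psmb8 to Psmb5), -0.46 to 0.33 (Psmb9 to Psmb6) and -0.072 to 0.011 (Psmb10 to Psmb7) in OE-CTD against CT-CTD and -0.0024 to 0.46 (Psmb8 to Psmb5) in OE-WD against CT-WD. Genes called at an adjusted p under 0.05 were 112 in OE-WD against CT-WD, 573 with DESeq2, 560 with no filter, 10 with library size alone, 39 with limma, 6 with the block and 4 with the groups alone, and in OE-CTD against CT-CTD 413, 799, 760, 214, 262, 186 and 596. In CT-WD against CT-CTD they were 0, 35 with DESeq2 and 93 with no filter, in OE-WD against OE-CTD 1 and 5 with no filter, and in the interaction 0, 9 with DESeq2, 29 with no filter and 1 with the block. Outside CT-WD against CT-CTD the same-numbered libraries did not all correlate above 0.1 (0.071, 0.14, 0.14 and 0.34 for 1 to 4 in OE-WD against OE-CTD), so the numbers were not taken to pair them, and whether the libraries numbered 4 share a source was not tested. Counts of Psmb8, Psmb9 and Psmg3 were low, which limits the precision of their values.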
